A study of Mus musculus with 6 samples.

Results

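The actin cytoskeleton and motility genes are 46 named genes whose products build, cut, cross-link, contract or anchor actin filaments. They were listed by name with earlier results of these data known, and the rule that picks their probe sets uses no difference between the genotypes. Of the 46, 43 had an array probe set that names a single gene and all 43 were tested, among 18193 genes with such a probe set and 13445 tested. The formin gene listed as Diap1 was measured under its current symbol Diaph1. The Arp2/3 complex genes Actr2, Arpc3 and Arpc1b are not analysed here, Arpc1b because its probe sets name several symbols.

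Macrophages were grown from the bone marrow of vimentin-deficient mice and their wild-type littermates, and RNA of 3 samples per genotype was measured, each on its own Affymetrix mouse genome array. Both groups had a C57BL/6 background and an age of 17 weeks. Their femoral marrow was cultured at normal oxygen in medium holding 10% supernatant of CMG14-12 cells, a source of the macrophage growth factor M-CSF. The allele of the vimentin-deficient mice, their sex and any sorting of the cultures are not given in the sources used here. The labels call the 3 samples of a genotype biological replicates without naming separate animals or cultures, so p-values measure the spread between these samples, which may in part be technical.

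A macrophage moves by polymerising actin at its leading edge. Profilin, thymosins and cofilin manage the pool of actin monomers, the Arp2/3 complex branches filaments when WASP and WAVE proteins call on it, and formins and Ena/VASP proteins lengthen them. Cross-linkers bundle the filaments, non-muscle myosin II pulls on them, talin and vinculin tie them to integrins, and ERM proteins tie them to the plasma membrane, and small GTPases direct these steps. Vimentin is an intermediate filament protein, a separate filament system of the same cells.

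Vim itself checked the labels. Its brightest probe set read 13.41, 13.24 and 13.31 on wild-type replicates 1 to 3 and 8.20, 6.96 and 7.13 on vimentin-deficient replicates 1 to 3, on the deposited log2 scale that is used for every array value here. The readings fell 59.4-fold (log2 fold change -5.89, SE 0.31, limma adjusted p = 0.00414). Vimentin-deficient replicates 2 and 3 lay below the array medians of 7.23 to 7.25, where background cannot be separated from signal, so this is the fold of the readings and the fold of the RNA may be larger. Vimentin-deficient replicate 3 stood apart from the other arrays: its correlations with them over all probe sets ran from 0.975 to 0.979, against 0.992 to 0.998 among the other 5 arrays. Values without it are therefore given beside those with 6 arrays where it moved a result. The 3 prime minus 5 prime difference of the Actb control probe sets, whose 5 prime signal drops when RNA is degraded, was 0.19 to 0.23 on vimentin-deficient and 0.18 to 0.19 on wild-type arrays, and replicate 3 read highest. All 6 macrophage markers were bright, with list means of 12.18 to 12.34 in vimentin-deficient and 12.24 to 12.42 in wild-type samples. The lists for neutrophils, B cells, T cells, dendritic cells, stroma, endothelium, erythroid cells and mast cells had means of at most 7.73 on every array. Single markers were brighter, such as the T cell gene Cd3e at 9.08 to 9.27, with overlapping groups. Without vimentin-deficient replicate 3 the endothelial gene Kdr rose by 0.33 on the log2 scale (limma adjusted p = 0.0424). In the same fit the macrophage genes Mertk, Adgre1, Lyz2 and Itgam had -0.46, -0.25, -0.15 and 0.20 and did not pass (limma adjusted p = 0.0946, 0.147, 0.152 and 0.304). The stromal list held Acta2, at a mean of 10.25, which is also an actin gene. Means of the platelet list were 7.36 to 7.99 in vimentin-deficient and 7.92 to 8.03 in wild-type samples, and those of the osteoclast list 7.11 to 7.59 and 7.09 to 7.18. On vimentin-deficient replicate 3 the platelet gene Pf4 read 8.45, against 10.78 and 10.96 on replicates 1 and 2, and the osteoclast gene Ctsk 9.01 against 7.44 and 7.49. The gap of replicate 3 to the mean of replicates 1 and 2 was -2.42 for Pf4. For Itga2b, Gp1bb and Gp9, the other platelet genes tested, it was -0.20, -0.03 and -0.03. The part of these other cells in the results was not tested, and in bulk samples fewer cells of a type and less RNA per cell cannot be told apart.

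No member passed the test with the 6 arrays. limma with Benjamini-Hochberg adjustment over all tested genes called 0 of the 43 members, against 0.0223% of all genes. At an unadjusted p under 0.05 it counted 4 members, Myh9, Lsp1, Vasp and Coro1a, which is 9.30% of the 43 against 7.97% of all genes, and all 4 were higher in vimentin-deficient macrophages. Members had a higher mean in vimentin-deficient samples in 24 of 43 cases, or 55.8%, where the share over all genes was 39.6%. Their median log2 fold change was 0.01, beside -0.02 for all genes, and they ran from -0.16 to 0.54. The median size of a difference, sign ignored, was 0.07 for the members and 0.07 for all genes. The 95% interval of the difference lay within 0.5 log2 units of 0, a 1.41-fold change, for 37 of the 43 members. It did so for 11457 of all 13445 genes, a similar share. Means were bright: 30 of 43 members lay above the 90th percentile of the tested genes, although the brightness of different probe sets does not measure their relative RNA amounts.

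**Figure D1:**
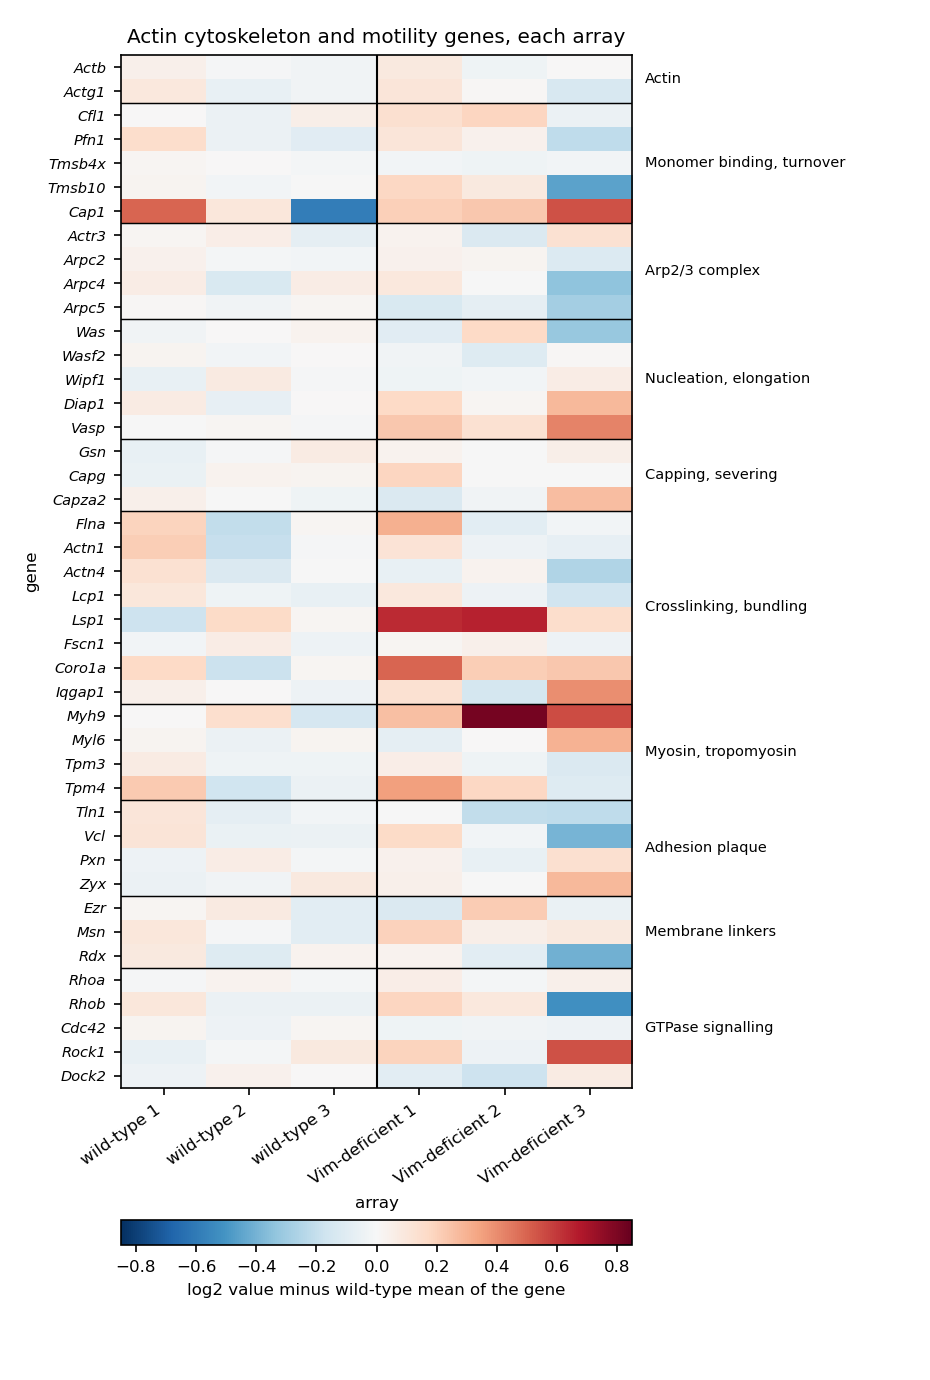
Log2 value of each of the 43 measured members on each of the 6 arrays minus the gene's mean over the 3 wild-type arrays, shown as colour (red above, blue below), with members in rows grouped by role and arrays in columns. Most cells are pale, the strongest red cell is Myh9 on vimentin-deficient replicate 2, Cap1 is blue on wild-type replicate 3, and vimentin-deficient replicate 3 differs in colour from replicates 1 and 2 for Rhob, Tmsb10 and Rock1.

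Leaving out vimentin-deficient replicate 3 gave 1 member that rose, Lsp1, and 0 that fell. That is 2.33% of members rising against 1.31% of all genes, and no fall against 1.03% of all genes. At an unadjusted p under 0.05 limma then counted 6 members (Lsp1, Myh9, Coro1a, Cfl1, Tmsb10 and Tpm4), a share of 14.0% against 14.2% of all genes. In that fit 29 of 43 members had the higher mean in vimentin-deficient samples, 67.4% against 44.5% of all genes, and their median log2 fold change was 0.03 beside -0.01 for all genes. All 3 vimentin-deficient values lay above all 3 wild-type values for Vasp, Coro1a and Myh9, 6.98% of the members against 5.32% of all genes. They lay below for Arpc5 and Tmsb4x, 4.65% against 10.1%.

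**Figure D2:**
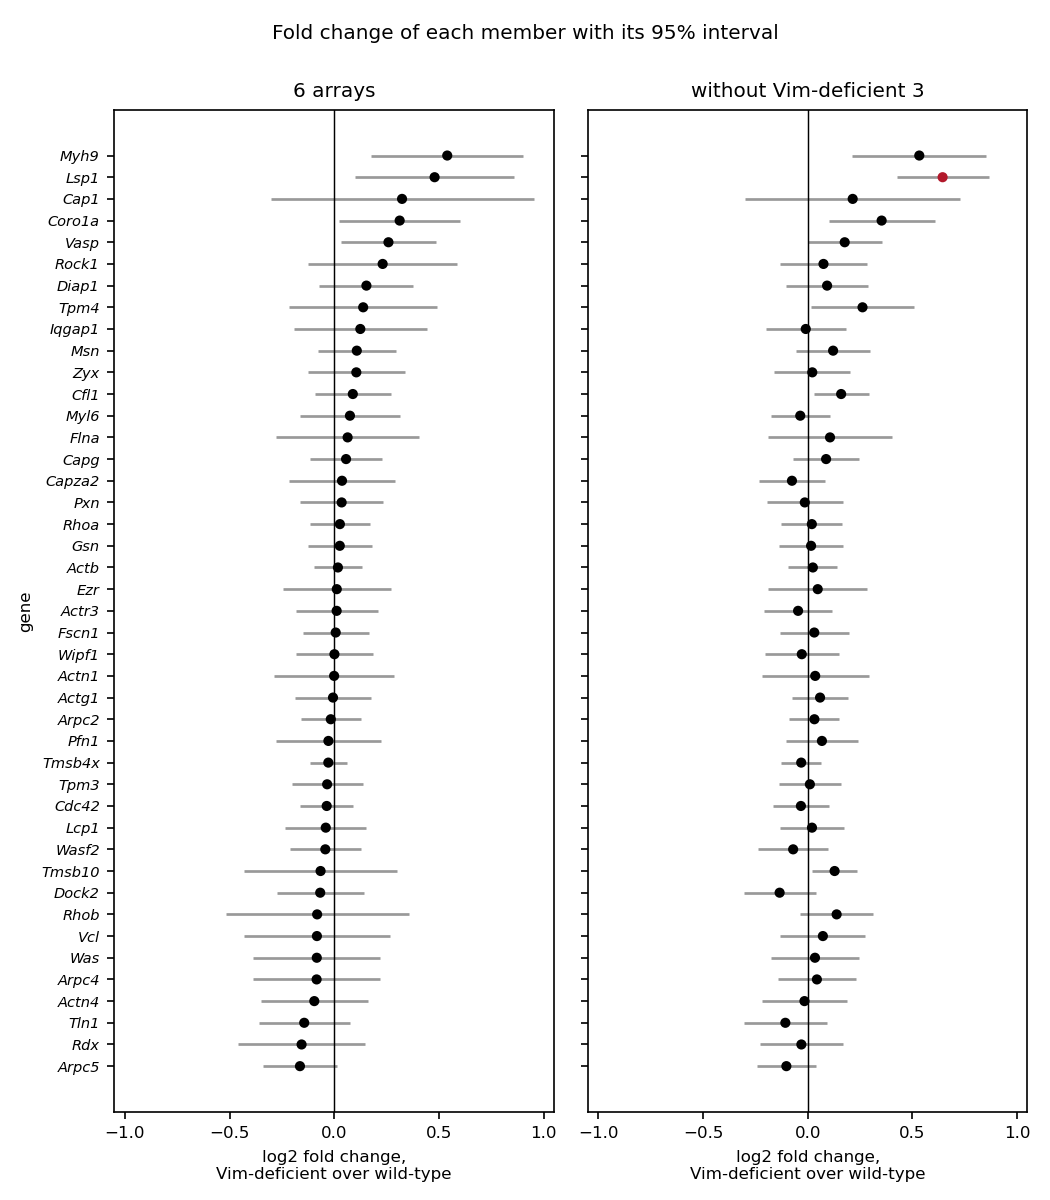
Log2 fold change, vimentin-deficient over wild-type, of the 43 members ordered by the fit with 6 arrays (left) and in the same order without vimentin-deficient replicate 3 (right), with bars for the 95% interval from limma. Lsp1 on the right is in red as the only member past the adjusted p threshold of 0.05, and Myh9 and Lsp1 have the largest values in both panels.

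The actins form the filament itself, and neither cytoplasmic gene passed the test. On the brightest probe set of each, the differences had narrow intervals around 0. Actb, the cytoplasmic beta-actin, read 14.00, 13.95 and 13.93 in wild-type replicates 1 to 3 and 14.05, 13.93 and 13.97 in vimentin-deficient replicates 1 to 3. The groups overlapped, and the log2 fold change was 0.02 (95% interval -0.10 to 0.13, limma adjusted p = 0.941). Actg1, the cytoplasmic gamma-actin, read 13.79, 13.63 and 13.66 against 13.80, 13.71 and 13.56, again overlapping, with a log2 fold change of -0.01 (SE 0.08, adjusted p = 0.991 by limma). It was 0.06 without vimentin-deficient replicate 3. These values sit close to the highest value on any array, 14.50, and whether the top of the scale compresses differences was not tested. A dimmer second Actb probe set, at a mean of 10.05, gave 9.35, 10.17 and 9.11 in wild-type and 9.56, 11.62 and 10.47 in vimentin-deficient samples. Its samples of 1 genotype spread by more than 1 log2 unit and the groups overlapped.

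Actg1 is a textbook target of the serum response factor SRF, whose cofactors the MRTF proteins are held by actin monomers and released when monomers are used up. SRF binds the CArG box, a motif with CC and GG at its ends and 6 A or T bases between them. Of the 41 members matched to the RefSeq promoter table (assembly GRCm38.p6), 4 held this motif on either strand in the 250 bases before their start, or 9.76%, where 439 of 27025 genes, or 1.62%, and 1.47% of all 32851 promoter windows did so. They were Actg1, Arpc4 of the Arp2/3 complex, the myosin light chain gene Myl6 and the adhesion gene Vcl. Their sequences are shown because they are the matched members with the motif that SRF binds, written 5′ to 3′ along the gene's strand with the CArG box in capitals.
Actg1, chr11:120348551-120348610, minus strand: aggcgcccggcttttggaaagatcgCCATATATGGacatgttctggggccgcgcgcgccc
Arpc4, chr6:113377863-113377897, plus strand: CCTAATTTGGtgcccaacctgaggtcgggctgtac
Myl6, chr10:128493025-128493084, minus strand: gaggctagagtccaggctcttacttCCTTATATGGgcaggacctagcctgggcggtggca
Vcl, chr14:20929148-20929205, plus strand: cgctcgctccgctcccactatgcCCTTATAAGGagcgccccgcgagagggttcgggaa
The box began 90 bases upstream of the start in Actg1, 250 in Arpc4, 50 in Myl6 and 227 in Vcl. A match describes the letters and is not a measured binding site. The log2 fold changes of these 4 genes were -0.01, -0.08, 0.08 and -0.08 in that order, and 0.06, 0.04, -0.04 and 0.07 without vimentin-deficient replicate 3. None of the 4 passed the test in either fit.

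The 5 genes that manage actin monomers did not pass the test in either fit. Cfl1, the non-muscle cofilin that severs and disassembles filaments, read 12.91, 12.86 and 12.96 in wild-type and 13.04, 13.10 and 12.86 in vimentin-deficient replicates 1 to 3. Vimentin-deficient replicates 1 and 2 lay above all wild-type values and replicate 3 did not. The log2 fold change was 0.09 (SE 0.08, limma adjusted p = 0.803), and 0.16 without replicate 3 (limma adjusted p = 0.236). The second Cfl1 probe set, at a mean of 12.62, differed by -0.01, and by 0.05 without replicate 3, with overlapping groups. The monomer-sequestering thymosins differed in their spread. Tmsb4x read 14.14, 14.13 and 14.11 against 14.10, 14.09 and 14.10, so that vimentin-deficient values lay below wild-type values without overlap, by only 0.03 (SE 0.04, limma adjusted p = 0.880). Tmsb10 read 14.11, 14.06 and 14.09 against 14.26, 14.17 and 13.63, with vimentin-deficient replicate 3 the lowest by 0.58 below the mean of replicates 1 and 2. Its log2 fold change was -0.07 with that array and 0.13 without it (limma adjusted p = 0.934 and 0.236). Cap1, a cyclase-associated protein that helps recycle actin monomers, varied most among wild-type samples, at 10.73, 10.33 and 9.64, and read 10.43, 10.46 and 10.78 in vimentin-deficient ones. Wild-type replicate 3 was the low value on its second probe set too, at 9.19 against 9.93 and 10.31. The difference of 0.32 had a 95% interval from -0.30 to 0.95 (limma adjusted p = 0.797). Pfn1, profilin, which feeds monomers to growing ends, had a log2 fold change of -0.03, and 0.07 without replicate 3.

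Of the 7 Arp2/3 complex genes, 4 were measured, and their log2 fold changes ran from -0.16 to 0.01. Arpc5, the smallest subunit, read 12.45, 12.41 and 12.46 in wild-type and 12.31, 12.37 and 12.15 in vimentin-deficient replicates 1 to 3. All vimentin-deficient values lay below all wild-type values, replicate 3 lowest. The log2 fold change was -0.16 (95% interval -0.34 to 0.01, limma unadjusted p = 0.0633, adjusted p = 0.643), and -0.10 without replicate 3. Arpc4 read 11.66, 11.46 and 11.66 against 11.68, 11.59 and 11.25, and only vimentin-deficient replicate 3 lay below the wild-type range. Actr3, the actin-related protein at the branch point, and Arpc2, a core subunit, had log2 fold changes of 0.01 and -0.02.

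Among the nucleation-promoting factors and elongators, Vasp had the largest difference. Vasp, which lengthens filaments at the leading edge, read 9.90, 9.92 and 9.89 in wild-type and 10.13, 10.03 and 10.33 in vimentin-deficient replicates 1 to 3. Every vimentin-deficient value lay above the narrow wild-type range, and replicate 3 was the highest. It was 1.20-fold higher (log2 fold change 0.26, 95% interval 0.03 to 0.49, limma adjusted p = 0.576), and 0.18 on the log2 scale without replicate 3 (limma adjusted p = 0.353). A single probe set measured it. Diap1, the formin mDia that acts downstream of RhoA, read 10.51, 10.37 and 10.45 against 10.61, 10.46 and 10.72, with a log2 fold change of 0.15 at an adjusted p of 0.723 by limma and overlapping groups. Its second probe set above the filter differed by -0.02. Was, the WASP protein of blood cells, Wasf2, a WAVE protein, and Wipf1, the partner that stabilises WASP, had log2 fold changes of -0.08, -0.04 and 0.00 with 6 arrays and 0.03, -0.07 and -0.03 without replicate 3.

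The 3 capping and severing genes had log2 fold changes of 0.03 to 0.06 with 6 arrays and of -0.08 to 0.09 without vimentin-deficient replicate 3. Gsn, gelsolin, which cuts and caps filaments, read 12.20, 12.25 and 12.33 in wild-type and 12.29, 12.26 and 12.31 in vimentin-deficient replicates 1 to 3. Its log2 fold change was 0.03 (SE 0.06, limma adjusted p = 0.934). Capg, the macrophage capping protein, read 12.71, 12.79 and 12.79 against 12.94, 12.75 and 12.75, with vimentin-deficient replicate 1 the only high value, and had a log2 fold change of 0.06 at an adjusted p of 0.877 by limma. Capza2, a subunit of the barbed-end capping protein, had 0.04, and -0.08 without replicate 3.

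The cross-linkers and filament-binding proteins included the member that passed the test without vimentin-deficient replicate 3. Lsp1, a leukocyte F-actin-binding protein involved in migration, read 10.97, 11.32 and 11.17 in wild-type and 11.79, 11.80 and 11.30 in vimentin-deficient replicates 1 to 3. Vimentin-deficient replicates 1 and 2 lay well above every wild-type value and close together, while replicate 3 lay inside the wild-type range, 0.49 below their mean. With all 6 arrays Lsp1 was 1.39-fold higher and did not pass (log2 fold change 0.48, 95% interval 0.10 to 0.86, limma adjusted p = 0.536). Without replicate 3 it rose 1.56-fold (log2 fold change 0.64, SE 0.10, limma adjusted p = 0.00594). A single probe set measured it, so the call rests on 1 probe set and on the choice of arrays.

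Coro1a, the coronin of blood cells, which binds Arp2/3 and F-actin, read 11.63, 11.27 and 11.47 in wild-type and 11.95, 11.67 and 11.69 in vimentin-deficient replicates 1 to 3. The groups did not overlap, although the lowest vimentin-deficient and the highest wild-type value were close. It was 1.24-fold higher (log2 fold change 0.31, 95% interval 0.02 to 0.60, limma adjusted p = 0.594) and had 0.35 without replicate 3 (limma adjusted p = 0.168). Its 3 probe sets differed by 0.31, 0.34 and 0.41, each with no overlap between groups. The dimmest, at a mean of 7.01, lay below the array medians, and its difference was 0.24 without replicate 3. Flna, Actn1, Actn4, Lcp1 and Fscn1, the genes of filamin A, the alpha-actinins, L-plastin and fascin, had log2 fold changes from -0.10 to 0.06. Iqgap1, a scaffold that binds filaments, had 0.12 with 6 arrays and -0.01 without vimentin-deficient replicate 3, the highest of its arrays.

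**Figure D3:**
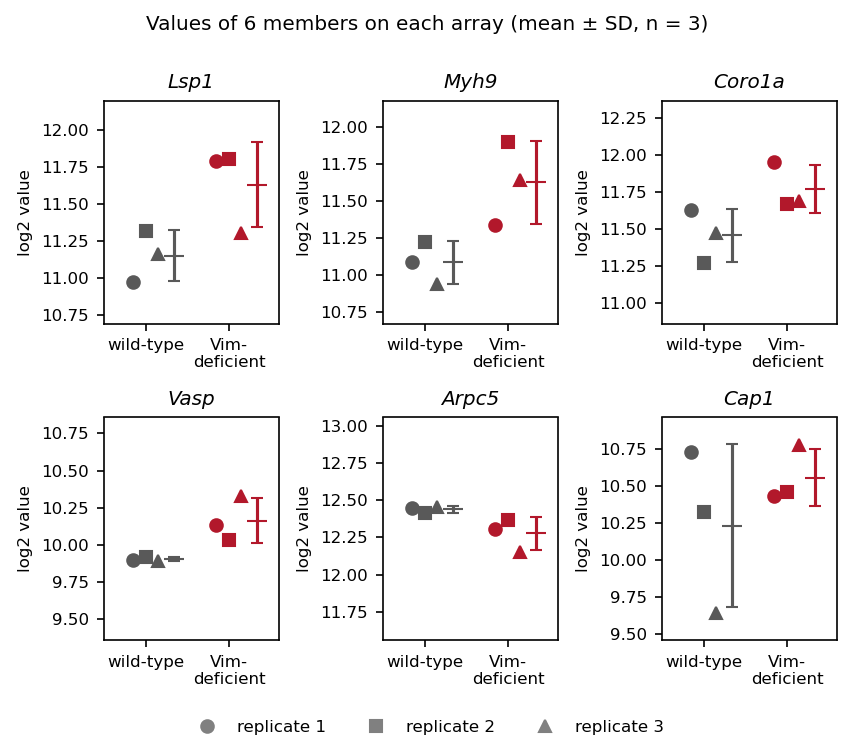
Log2 values of 6 members on each array, grey for wild-type and red for vimentin-deficient samples, with a symbol for each replicate number and bars for mean ± SD over n = 3. In Lsp1 the triangle of vimentin-deficient replicate 3 lies at 11.30 within the wild-type range, Vasp has the narrow wild-type values, and Cap1 has the wide wild-type spread.

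Myh9, the heavy chain of non-muscle myosin IIA, the main motor of contraction in macrophages, had the largest log2 fold change of the members with 6 arrays, and the largest after Lsp1 without vimentin-deficient replicate 3. It read 11.09, 11.22 and 10.94 in wild-type and 11.34, 11.90 and 11.64 in vimentin-deficient replicates 1 to 3. The groups did not overlap, and vimentin-deficient replicate 2 was the highest and replicate 1 the lowest of its group. Myh9 was 1.45-fold higher (log2 fold change 0.54, 95% interval 0.18 to 0.90, limma adjusted p = 0.435) and had 0.53 without replicate 3 (limma adjusted p = 0.0946), so it passed in neither fit. Its 5 probe sets above the filter did not measure the same difference. From the brightest to the dimmest they differed by 0.54, 0.25, 0.01, 0.04 and 0.09, and the groups overlapped on all but the brightest. Vimentin-deficient replicate 2 was the high value on the brightest pair, at 11.90 and 11.03, and without that array Myh9 had 0.40. With the mean of all its probe sets Myh9 had a log2 fold change of 0.19. Tpm4, a tropomyosin that coats filaments, read 11.66, 11.27 and 11.39 against 11.79, 11.62 and 11.33, overlapping, with a log2 fold change of 0.14 at an adjusted p of 0.852 by limma and 0.26 without replicate 3 (limma adjusted p = 0.318). Its paralog Tpm3 had -0.03, and Myl6, the essential light chain and the dimmest member at a mean of 8.03, had 0.08.

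Among the adhesion genes, Tln1, talin, which activates integrins and couples them to actin, read 11.71, 11.53 and 11.58 in wild-type and 11.60, 11.40 and 11.39 in vimentin-deficient replicates 1 to 3. The groups overlapped through vimentin-deficient replicate 1, and the log2 fold change was -0.14 (SE 0.09, limma adjusted p = 0.735). Its dimmer probe sets differed the other way, by 0.13 and 0.31. Zyx, zyxin, a sensor of tension in adhesions and stress fibres, read 9.67, 9.69 and 9.80 against 9.77, 9.72 and 9.99, with a log2 fold change of 0.11 at an adjusted p of 0.824 by limma, and 0.02 without replicate 3. Vcl, vinculin, read lowest on vimentin-deficient replicate 3, at 8.89 against 9.45 and 9.26 on replicates 1 and 2, and Pxn, paxillin, had a log2 fold change of 0.04.

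The 3 ERM genes are close paralogs and their differences pointed both ways. Msn, moesin, the ERM protein most typical of leukocytes, read 12.12, 12.01 and 11.93 in wild-type and 12.21, 12.07 and 12.10 in vimentin-deficient replicates 1 to 3. The groups overlapped, with a log2 fold change of 0.11 (SE 0.08, adjusted p = 0.763 by limma). Rdx, radixin, read 10.60, 10.41 and 10.56 against 10.55, 10.43 and 10.12, with only vimentin-deficient replicate 3 below the wild-type range. Its log2 fold change was -0.16 (limma adjusted p = 0.797) and -0.03 without that array. Ezr, ezrin, had 0.01 on its brightest probe set and a difference of 0.30 on a dimmer second one, whose groups did not overlap.

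Of the small GTPases and their partners, Rock1, the kinase by which RhoA drives myosin contraction, had the largest difference with 6 arrays but not without vimentin-deficient replicate 3. It read 10.14, 10.18 and 10.28 in wild-type and 10.39, 10.16 and 10.74 in vimentin-deficient replicates 1 to 3. Vimentin-deficient replicate 2 lay inside the wild-type range, the other two lay above it, and replicate 3 was the highest. Its log2 fold change was 0.23 (SE 0.15, limma adjusted p = 0.739) and 0.08 without replicate 3. Dock2, an exchange factor that activates Rac in leukocytes, read 11.04, 11.12 and 11.09 against 10.99, 10.90 and 11.15, with log2 fold changes of -0.07 and, without replicate 3, -0.13. Rhob read 11.77 and 11.68 on vimentin-deficient replicates 1 and 2 and 11.07 on replicate 3, so its log2 fold change was -0.08 with and 0.14 without that array. Rhoa and Cdc42, the GTPases of contraction and of filopodia, had 0.03 and -0.04.

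Spread over the 3 arrays was larger in vimentin-deficient samples for most members, and 1 of these samples, replicate 3, stood apart. The median SD of a member over 3 arrays was 0.13 in vimentin-deficient and 0.07 in wild-type samples, beside 0.10 and 0.07 over all genes, and 34 of 43 members had the larger SD in vimentin-deficient samples, 79.1% against 70.1% of all genes. Vimentin-deficient replicate 3 lay over 0.25 log2 units from the mean of replicates 1 and 2 for 15 members, 34.9% against 28.8% of all genes. It was the lower for 9 of them (Rhob, Tmsb10, Lsp1, Vcl, Arpc4, Rdx, Tpm4, Was and Pfn1) and the higher for 6 (Rock1, Iqgap1, Capza2, Myl6, Cap1 and Zyx). Vimentin-deficient replicates 1 and 2 differed from each other by over 0.25 log2 units for 6 of 43 members and for 888 of all 13445 genes. Replicate 1 read high for the members in both genotypes. On wild-type replicate 1, 31 of 43 members lay above the wild-type mean, and 31 did on vimentin-deficient replicate 1. On each other array 15 to 20 did. Such counts were not made over all genes, so the shift is not shown to be particular to the members. Over all tested genes the deviations of wild-type and vimentin-deficient replicate 1 correlated at 0.50.

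Separate probe sets gave a second measurement of the same RNA for many members. Of the 43 members, 30 had several probe sets above the filter, and in 20 of them all probe sets pointed the same way. In 10 at least 1 probe set had the opposite sign. The median gap between a member's highest and lowest probe set difference was 0.09, and the gap passed 0.25 for Actb, Myh9, Tln1, Iqgap1 and Ezr. Vimentin-deficient replicate 2 was the high array in several of these gaps, at 11.62 on the second Actb probe set and 12.50 on an Iqgap1 probe set whose other arrays read 11.39 to 11.66. Of the 4 members with an unadjusted p under 0.05, Vasp and Lsp1 had a single probe set. The brighter probe sets of Coro1a agreed in size and its dimmest lay below the array medians, while those of Myh9 did not agree.

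**Figure D4:**
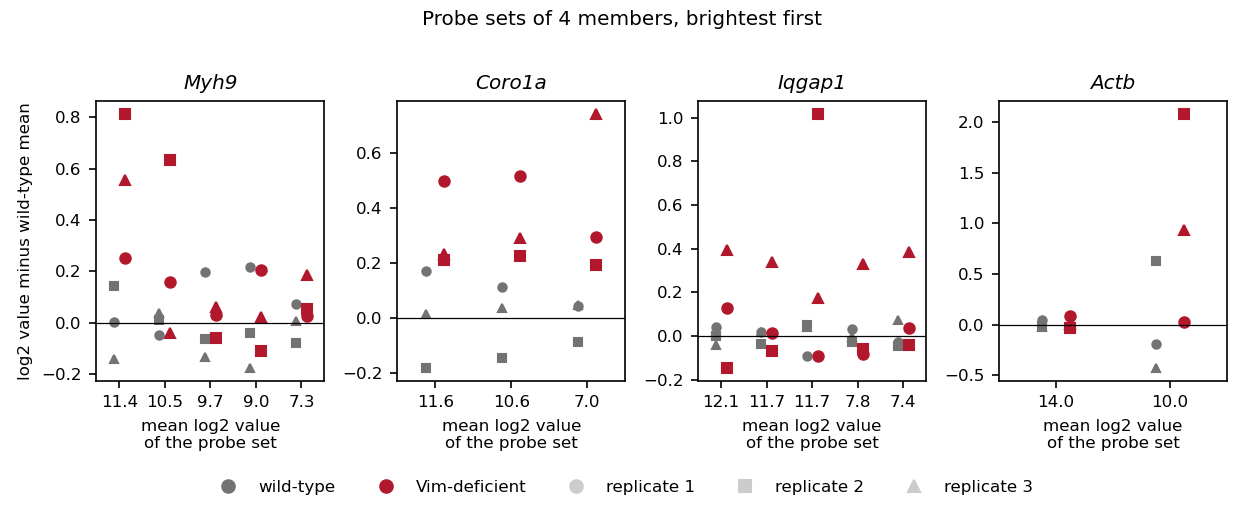
Log2 value on each array minus the wild-type mean, for every probe set above the filter of Myh9, Coro1a, Iqgap1 and Actb, placed by the mean log2 value of the probe set with the brightest at the left, grey for wild-type and red for vimentin-deficient samples. All red symbols lie above all grey ones in the 3 Coro1a probe sets and in the brightest Myh9 probe set, and the square of vimentin-deficient replicate 2 stands far above the rest in single probe sets of Iqgap1 and Actb.

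A further list held 121 actin regulators that are not among the 46, of which 102 were tested. With 6 arrays limma called 0 of them and counted 17 at an unadjusted p under 0.05, 16.7% against 7.97% of all genes, 11 of them higher. Without vimentin-deficient replicate 3, 3 rose and 5 fell, 2.94% and 4.90% against 1.31% and 1.03% of all genes. The median log2 fold change of the list was -0.02 in both fits. All 3 vimentin-deficient values lay above wild-type for 13 of its genes and below for 7, or 12.7% and 6.86% against 5.32% and 10.1% of all genes.

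Of the 8 genes called without vimentin-deficient replicate 3, 4 had all 3 vimentin-deficient values on the same side of every wild-type value. Marcksl1, a membrane-bound protein that binds actin, read 9.11, 9.18 and 9.13 in wild-type and 9.90, 9.79 and 9.55 in vimentin-deficient replicates 1 to 3. The groups were well apart, with a log2 fold change of 0.60 (SE 0.10, adjusted p = 0.226 by limma) and a rise of 0.70 without replicate 3 (SE 0.08, limma adjusted p = 0.00116). Its 4 probe sets differed by 0.39 to 0.64. Tns1, tensin, which links integrins to actin in mature adhesions, read 9.78, 10.18 and 10.21 against 9.32, 9.43 and 9.23. It had the largest difference of the list with 6 arrays, at -0.73 (SE 0.13, limma adjusted p = 0.238), and fell by 0.68 without replicate 3 (limma adjusted p = 0.0173), with 3 probe sets between -0.90 and -0.53. Myh10, the heavy chain of non-muscle myosin IIB and a paralog of Myh9, read 7.42, 7.40 and 7.47 against 7.86, 7.68 and 7.73, with a log2 fold change of 0.33 at an adjusted p of 0.238 by limma and a rise of 0.34 without replicate 3 (limma adjusted p = 0.0243). Rnd3, an atypical small GTPase that opposes ROCK signalling, read 7.01, 6.99 and 6.94 against 7.26, 7.21 and 7.14, all close to the filter value of 6.93. It had 0.22 with 6 arrays and rose by 0.25 without replicate 3 (limma adjusted p = 0.0283).

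The other 4 fell on vimentin-deficient replicates 1 and 2 and not on replicate 3. Evl, an Ena/VASP paralog of Vasp, read 11.36, 11.11 and 11.25 in wild-type and 10.61, 10.60 and 11.39 in vimentin-deficient replicates 1 to 3. It fell by 0.64 without replicate 3 (limma adjusted p = 0.00383), and had -0.37 with it. Rhoc, a RhoA paralog, read 10.14, 10.01 and 10.03 against 9.69, 9.54 and 10.43, and fell by 0.44 without replicate 3 (limma adjusted p = 0.0253). In both genes replicate 3 lay above every wild-type value. The single-headed myosin gene Myo1e and the transport myosin gene Myo5a fell by 0.44 and 0.43 in the same fit (limma adjusted p = 0.0349 and 0.0378). With all 6 arrays they had -0.16 and -0.26, and their replicate 3 values were 10.21 and 11.29 against wild-type values of 9.73 to 9.97 and 11.06 to 11.32. Without replicate 3 the second probe sets of Evl and Rhoc differed by -0.61 and -0.46 and the dimmer ones of Myo5a by -0.43 and -0.37, but those of Myo1e by 0.01 and -0.14. The dimmest Evl probe set above the filter differed by -0.10 without replicate 3 and by 0.37 with it. The 8 genes called in the fit without replicate 3 thus split into 4 whose direction was shared by that array and 4 whose direction was not.

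**Figure D5:**
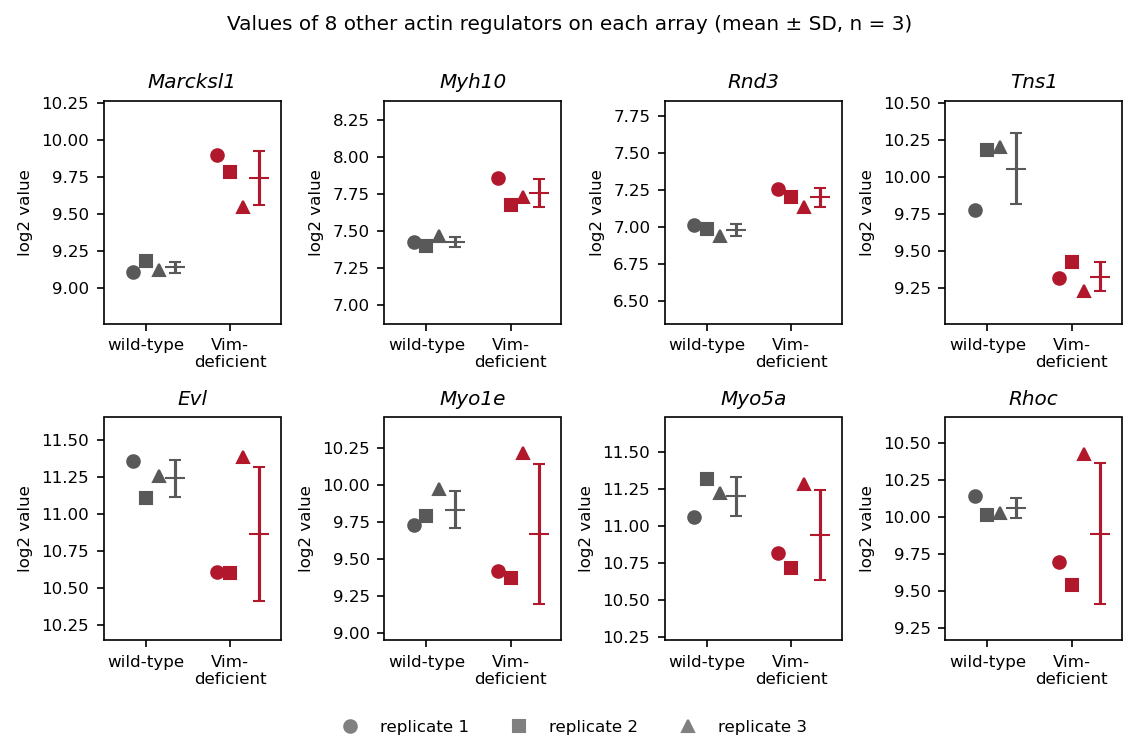
Log2 values of the 8 actin regulators outside the 46 that passed the threshold without vimentin-deficient replicate 3, on each array, grey for wild-type and red for vimentin-deficient samples, with bars for mean ± SD over n = 3. The triangle of vimentin-deficient replicate 3 lies with replicates 1 and 2 in Marcksl1, Myh10, Rnd3 and Tns1 (top row) and apart from them, within or above the wild-type values, in Evl, Myo1e, Myo5a and Rhoc (bottom row).

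The last list held 25 SRF cofactors and targets, of which 22 were tested. Whether its genes read actin state in these cells was not tested. limma called 0 with 6 arrays and counted 2 at an unadjusted p under 0.05, 9.09% against 7.97% of all genes. These were Cnn2, higher in vimentin-deficient samples, and Tgfb1, lower in them. Without vimentin-deficient replicate 3 none rose and 2 fell, 9.09% against 1.03% of all genes falling. Srf itself and the cofactor genes Mrtfa and Mrtfb had log2 fold changes of 0.01, -0.01 and 0.01. Egr1, an immediate early gene, read 8.12, 7.87 and 7.82 in wild-type and 7.29, 7.36 and 8.07 in vimentin-deficient replicates 1 to 3, and fell by 0.61 without replicate 3 (limma adjusted p = 0.00381). Egr2, its relative, read 8.89, 8.58 and 8.69 against 8.31, 8.15 and 9.35, and fell by 0.49 (limma adjusted p = 0.0277). For both, replicate 3 lay back in or above the wild-type range, and with 6 arrays they had -0.36 and -0.11. Tgfb1 read 12.04, 12.08 and 12.23 in wild-type and 11.80, 11.90 and 11.79 in vimentin-deficient replicates 1 to 3, with no overlap. Its log2 fold change was -0.29 (limma adjusted p = 0.411), and -0.26 without replicate 3 (limma adjusted p = 0.132).

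Cnn2, calponin 2, an actin-binding protein of leukocytes, was chosen after its values were seen. It read 9.39, 9.37 and 9.33 in wild-type and 9.69, 9.68 and 9.70 in vimentin-deficient replicates 1 to 3 with no overlap and with replicate 3 beside the others of its group. It was 1.25-fold higher (log2 fold change 0.33, SE 0.07, limma adjusted p = 0.275, and 0.0625 without replicate 3). In the promoter window, 5 of 21 matched genes of the SRF list and 4 of 98 matched other regulators had a CArG box. Of the genes with values given from these lists, Srf, Cnn2, Rnd3, Myo1e and Egr2 had it. The sequences of all of these but Srf are shown for that reason.
Cnn2, chr10:79988519-79988578, plus strand: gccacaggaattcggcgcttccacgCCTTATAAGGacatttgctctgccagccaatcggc
Rnd3, chr2:51149177-51149236, minus strand: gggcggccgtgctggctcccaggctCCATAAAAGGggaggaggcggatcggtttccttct
Myo1e, chr9:70207293-70207349, plus strand: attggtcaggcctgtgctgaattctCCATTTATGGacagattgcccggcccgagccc
Egr2, chr10:67537469-67537528, plus strand: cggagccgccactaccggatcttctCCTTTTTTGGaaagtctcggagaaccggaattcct
Egr2, chr10:67537772-67537831, plus strand: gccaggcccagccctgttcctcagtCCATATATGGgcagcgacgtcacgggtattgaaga
The capitals again mark the CArG box, which began 56, 100 and 32 bases upstream of the start in Cnn2, Rnd3 and Myo1e. In Egr2, which has several starts, the boxes began 72 to 133 bases upstream. These genes were picked partly by their values, so nothing is read from their directions.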

How the data were processed

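The values used are log2 probe set values deposited by the authors in the series table, 45101 per array. Array medians of 7.23 to 7.25 led to their use as deposited, since how they were summarised and normalized is not stated by the labels. The members and lists were chosen with earlier results of these data known, and so was the choice to leave out vimentin-deficient replicate 3. Probe sets were named from the platform annotation (34945 with 1 symbol, 932 with several, 9160 with none). For 34741 of those with 1 symbol, the RefSeq symbol of the same Entrez ID was used, whether or not it differed. The probe set with the highest mean stood for a gene, and genes at or above the 40th percentile, 6.93, were tested. limma 3.58.1 in R 4.3.3 (lmFit, eBayes with a mean-variance trend) compared 3 vimentin-deficient with 3 wild-type arrays, with Benjamini-Hochberg adjustment over 13445 genes and a threshold of 0.05. The number of arrays limits the precision. The procedure was tested on simulated data. Log2 fold changes are vimentin-deficient minus wild-type. The rule for named genes took Vim, members past the threshold in either fit, the 2 members of each role with the smallest p, the highest and lowest log2 fold change, members whose groups did not overlap, and list genes past the threshold. Promoter windows of 300 bases came from RefSeq, without matches for Actb, Diaph1, Lsp1, Pxn and Rock1. The arrays come with no build, so RefSeq coordinates belong to GRCm38.p6 only.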

Additional observations from a re-analysis of the deposited data

How the results depend on the processing

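The genes of the naming rule were refitted under quantile normalization, median centring, other filters, other uses of probe sets, another variance model, array quality weights, a replicate block, an adjusted p under 0.1 and without each array. The count of members that passed the test was 0 under each except without vimentin-deficient replicate 3, and so 0 to 1 without 1 array. Genes that passed in all were 3, then 93 with array quality weights (weight of vimentin-deficient replicate 3 0.226), 0 with the replicate block, and 0 to 315 without 1 array. They were 1 without vimentin-deficient replicate 2, 315 without replicate 3 and 0 without any wild-type array. Other actin regulators that passed were 0, then 4 with array quality weights (Marcksl1, Myh10, Tns1 and Rnd3) and 0 to 8 without 1 array, and the SRF list gave 0 to 2. Vim had -5.89 with the replicate block at an adjusted p of 0.0620 by limma, and -6.28 to -5.66 without 1 array, with adjusted p of 0.0527, 0.0501 and 0.0766 without wild-type replicates 1, 2 and 3. The cause of these shifts was not tested.

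Small differences changed sign: Actg1 to 0.0047 (quantile normalization) and 0.059 (array quality weights), Arpc4 to 0.0058 (array quality weights), and Tln1 to 0.10 and Dock2 to 0.054 with the mean of all probe sets. Without 1 array they ran from -0.016 to 0.045 for Actb, -0.061 to 0.059 for Actg1, -0.17 to 0.044 for Arpc4, -0.0058 to 0.088 for Capg, -0.0056 to 0.063 for Gsn, -0.44 to 1.5e-05 for Rhoc and -0.49 to 0.11 for Egr2. Myh10 and Rnd3 gave no value under the 60th percentile filter or the mean of probe sets, where their means lay below the filter. Deviations of same-numbered arrays correlated at 0.50, -0.19 and 0.05. Only vimentin-deficient replicate 1 correlated best with the wild-type array of its number. Whether the numbers pair the samples cannot be told from these values, since each deviation is taken from a mean of 3 arrays. Depth does not apply to arrays. Probe sets near the filter, such as that of Rnd3, and those near the top of the scale limit the size of a difference that can be read.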
